A study of Mus musculus with 64 samples.

Results

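The 150 mRNAs described here are those whose share of the library fell the furthest in mouse embryonic stem cells that lost RPB2 or RPB6, subunits of RNA polymerase II (Pol II). They were selected on the 12 h values of those cells: autosomal protein-coding genes with a mean of at least 20 CPM (the usual depth-scaled read count, here over all counts) in untreated RPB2 and in untreated RPB6 cells were ranked by the larger of the 2 ratios of treated to untreated mean, symbols starting with Zfp were left out, and the 150 lowest were taken. The count table lists 55335 genes. Of these, 6866 could have been chosen, and the 150 make up 2.18% of them. The values of RPB2 and RPB6 cells at 12 h are therefore given as a description, and tests were made in the other lines and in separate libraries taken after 1 h.

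V6.5 mouse embryonic stem cells carried an auxin-inducible degron on 1 Pol II subunit, which gave 12 lines, each called by its tagged subunit from RPB1 to RPB12. Wild-type (WT) cells without a tag were handled in parallel. Each group had 2 libraries: cells given 500 µM of the auxin IAA for 12 h and untreated cells of the same line in WT and all 12 degron lines (52 libraries), and RPB1, RPB3 and RPB6 cells after 1 h and at 0 h of IAA (12 libraries). All groups, per the labels' protocols, were grown with 3 µM CHIR99021 and 0.5 µM PD0325901, inhibitors of GSK3 and MEK, and received doxycycline for 12 h before IAA to induce OsTir1, the plant protein that hands degron-tagged proteins to the ubiquitin system. The sources used here do not state whether WT cells carried OsTir1 or whether each degron line was a single clone. The labels also do not call the paired libraries independent cultures. The p-values below therefore weigh effects against library-to-library spread alone, and that spread could be technical.

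Pol II transcribes protein-coding genes. RPB1 and RPB2, its largest subunits, form the active centre, RPB3 and RPB11 are the platform on which the enzyme assembles, RPB4 and RPB7 form a stalk, and RPB5, RPB6, RPB8, RPB10 and RPB12 are shared with Pol I and Pol III. The level of an mRNA is set by its synthesis and by its decay, and transcripts of signalling, stress and cell identity genes are known for short lives. AU-rich elements in the 3' untranslated region (UTR) are a known binding site of mRNA decay factors.

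The 12 h libraries held 3399838 to 7164928 counts and the 0 h and 1 h libraries 8598431 to 13281252. Summed CPM of 8 embryonic stem cell markers was 2793 to 9526 in IAA libraries and 4327 to 6513 in untreated ones at 12 h. Markers of fibroblasts, which serve as feeder cells, summed to 2.09 to 21.1 CPM in IAA libraries and 2.94 to 12.6 CPM in untreated ones, and 2 of those 7 were at 0 counts in all IAA libraries and 2 in all untreated ones. In RPB2 and RPB6 the fibroblast sum was 10.3 to 10.9 CPM with IAA and 3.33 to 5.91 CPM untreated, and the trophectoderm sum 65.9 to 184.1 CPM with IAA and 44.8 to 94.4 CPM untreated. In the same libraries the stem cell sum was 5584 to 9526 CPM with IAA and 5014 to 6513 CPM untreated, that of primitive endoderm 1.69 to 3.33 CPM and 5.91 to 7.84 CPM, that of neuroectoderm 0.466 to 3.04 CPM and 6.25 to 10.6 CPM, and that of mesoderm 0.675 to 6.06 CPM and 1.43 to 3.40 CPM. The part of these in the results was not tested. Counts are shares of a library, so a change of all mRNAs together leaves them unmoved, and fewer cells and less RNA per cell cannot be told apart. A degron removes protein, so the mRNA of the tagged subunit checks no label.

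In the cells the selection was made on, the first few members were left at a few percent of their untreated level or less. The mRNA at the head of the list was Chac1, an enzyme that degrades glutathione and a target of the integrated stress response. Its level was 0 and 0.251 CPM of all counts in IAA-treated RPB2 cells, against 25.1 and 21.6 CPM in untreated RPB2 cells. In RPB6 cells it was 0.221 and 0 CPM with IAA, against 51.3 and 45.0 CPM untreated. Each treated group held 1 Chac1 read in all, so the share left was 0.54% in RPB2 (95% counting interval 0.0139 to 3.09%) and 0.23% in RPB6 (0.00583 to 1.29%), intervals that cover counting error only.

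Klf2, a transcription factor of naive pluripotency, started far higher, with 3954 reads in untreated RPB2 cells and 48 in treated ones. It had 3.34 and 8.79 CPM in IAA-treated RPB2 cells, against 331.6 and 319.9 CPM in untreated ones, and 15.0 and 9.77 CPM in IAA-treated RPB6 cells, against 452.2 and 429.9 CPM in untreated ones. The levels with IAA lay far below the untreated ones in both lines, though the treated RPB2 libraries differed between themselves. Fgf4, the growth factor through which stem cells signal to each other, kept 3.40% of its untreated level in RPB2 and 4.14% in RPB6. Nlrp12, a cytoplasmic NOD-like receptor, kept 1.84% in RPB2 and 2.39% in RPB6.

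Among all 150 members the share left had a median of 4.96% in RPB2 (0.454 to 9.19%) and 7.20% in RPB6 (0.230 to 9.29%), and untreated levels ran from 20.2 to 453.2 CPM in RPB2. The median over the other 6716 eligible genes was 52.2% in RPB2 and 68.1% in RPB6, so in shares of the library an ordinary expressed gene also lost ground. The list ends without a gap. Ndufaf4, Klf9 and Gm6871, just inside, had larger ratios of 9.26%, 9.28% and 9.29%, and Gm9887, Ing2 and Snrnp48, just outside, had 9.30%, 9.32% and 9.32%. The median log2 difference of the members was -3.46 in RPB2 and -3.17 in RPB6 with TMM scaling (a trimmed mean over genes), where all genes had medians of -0.19 and -0.13. Relative to the 13 mRNAs of the mitochondrial genome it was -5.66 and -5.12, where all genes had medians of -2.32 and -2.08.

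The members were counted in lists of genes by function. Of 27 eligible genes of the pluripotency network 5 were members (Klf2, Fgf4, Klf4, Nodal and Sox2), as were 10 of 133 on a list of named transcription factors. That list leaves out other members that are transcription factors, such as Pou2f3, Olig2, Xbp1 and Gli2. The list of 19 FGF-ERK feedback and immediate-early genes held 3 members (Trib3, Spred1 and Sgk1), of which Trib3 is also on the stress response list that follows. Of 28 eligible genes of the integrated stress response and the unfolded protein response 9 were members (Chac1, Trib3, Slc38a2, Xbp1, Cebpg, Atf4, Herpud1, Vegfa and Sesn2), a list put together after the values were seen. None of the 73 eligible cytosolic ribosomal protein genes, 36 proteasome genes, 12 Pol II subunit genes or 12 apoptosis regulators was a member, and 1 was among 84 genes of the nuclear-encoded respiratory chain (Ndufaf4), 1 among 49 DNA replication genes (Cdt1), 1 among 26 Mediator subunits (Med4) and 3 among 176 splicing genes. These are counts without a test, to be read against the 2.18% of eligible genes that are members. Membership of 60 of the 150 in at least 1 of the 23 lists leaves 90 members that belong to none of them.

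Members differed from other eligible genes in features the selection did not use. They had a median of 6.5 exons, against 10 in the other eligible genes, while the length of the gene from start to end was alike (22.6 kb, against 25.2 kb). Genes with at most 2 exons made up 13.3% of members (20 of 150) and 3.19% of the other eligible genes (214 of 6716). Eid2, Riox1, Zcchc3, Haspin, Sox2 and Fzd10 have a single exon. The AU-rich heptamer TATTTAT was present in the 3' UTR of 63 members (42%), against 28.2% of the other eligible genes. Because longer UTRs hold more motifs by length alone, the share was also taken by class: over 4 classes from the shortest to the longest UTRs it was 11.1%, 28.2%, 43.9% and 72.1% of members, against 7.67%, 20%, 31.4% and 54% of the other eligible genes.

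The heptamer lay in the 3' UTR of each of the 3 members with the lowest ratios and of Olig2, a basic helix-loop-helix factor at rank 6, but not of Orai1 and Trib3 at ranks 4 and 5, and the 4 windows are printed to show the sequence that the count rests on. They are 30 bases of the annotated UTR (GENCODE M21, mm10), in the orientation of the mRNA with T for U, and capitals mark TATTTAT, in which every copy also holds the shorter motif ATTTA. The Chac1 window is chr2:119353773-119353802 on the plus strand, that of Nlrp12 chr7:3222420-3222449 on the minus strand, that of Klf2 chr8:72320988-72321017 on the plus strand and that of Olig2 chr16:91228592-91228621 on the plus strand. A match is a description of letters and not a measured binding site.
Chac1 3' UTR: acttgaaccttTATTTATtgcaccatgttg
Nlrp12 3' UTR: gccgaccaggaTATTTATtccctctgcttt
Klf2 3' UTR: aaacagactgcTATTTATtggaccttagga
Olig2 3' UTR: gtgctaaataaTATTTATtacttgtttggt

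In the lines the selection did not use, most members fell in some and not in others. Over the 10 other degron lines at 12 h, 125 members were lower in at least 1 (edgeR adjusted p under 0.05, over all genes tested), 58 in at least 5 and 19 in at least 8. The widest falls in number of lines were those of Spred1, an inhibitor of Ras-ERK signalling, Mtus1, a microtubule-associated protein, and Arhgap32, a GTPase-activating protein, each lower in 9 lines. A set of 25 members was lower in 0 of the 10 lines and higher in at least 1, and 48 members were lower in some lines and higher in others. So members that all had a low level after loss of RPB2 and RPB6 fell in other lines in some cases and rose in share in others. The same counts over lines were not taken for the other eligible genes. In single lines of the 10, the share of those genes called lower ran from 1.34% in RPB4 to 51.7% in RPB1. Their share called higher ran from 1.68% in RPB4 to 33.4% in RPB8. The counts over lines therefore describe the members and do not set them apart from other genes. The rises depend on the scale: relative to mitochondrial mRNAs 0 members were called higher in RPB8, RPB7, RPB12 and RPB4, 1 in RPB5, RPB1 and RPB9, 2 in RPB11, 5 in RPB10 and 68 in RPB3. In RPB3 that scale is uncertain, since mitochondrial mRNAs made up 0.534% of counts in IAA replicate 1 and 1.72% in IAA replicate 2.

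**Figure D1:**
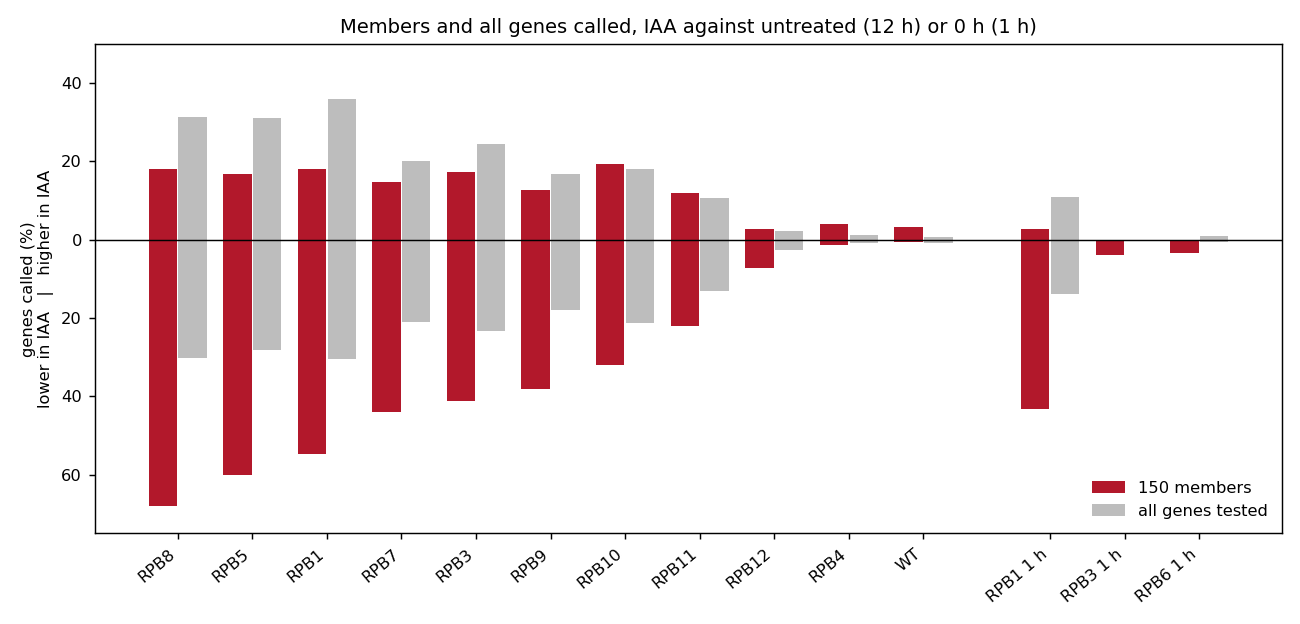
Percent of the 150 members called lower and higher (edgeR adjusted p under 0.05) in each comparison, beside the same percent of all genes tested. The share of members called lower runs down from 68% in RPB8 to 1.33% in RPB4 and 0.667% in WT.

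**Figure D2:**
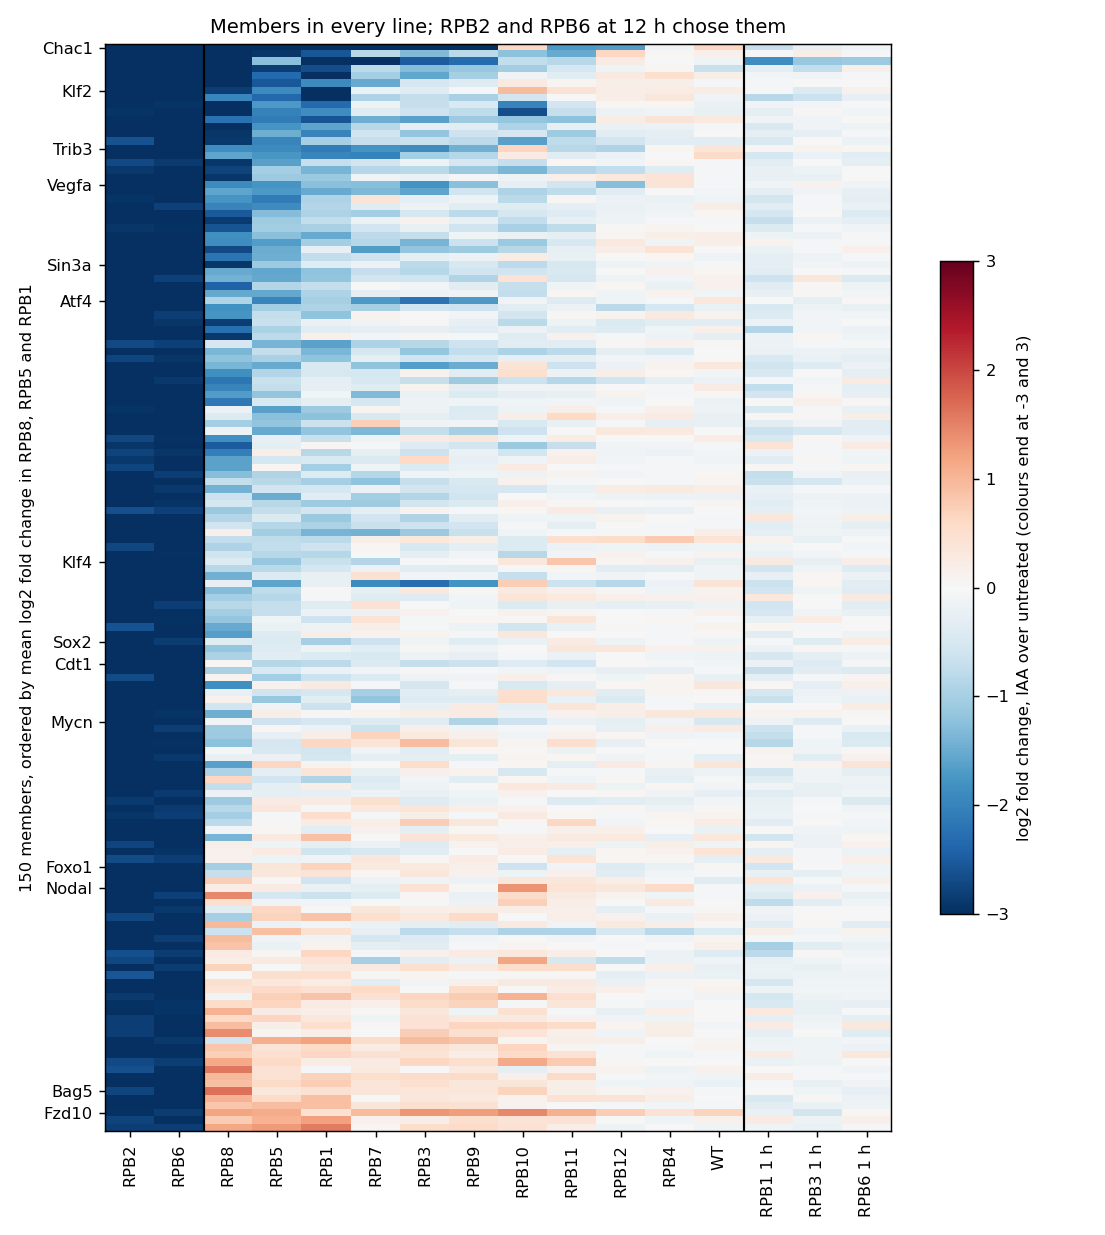
Log2 fold change (IAA over untreated) of each of the 150 members (1 row each) in every line, with RPB2 and RPB6, whose values chose the members. Rows that are blue in RPB2 and RPB6 are blue, pale or red in the other lines.

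RPB8 loss lowered more members than loss of any of the other 9 subunits tested here. In RPB8, 102 of 150 members were lower (68%), against 30.2% of all 17928 genes tested and 44.4% of the other eligible genes, and 27 were higher (18%), against 31.5% of all genes and 33.4% of the other eligible genes. The middle member had a log2 fold change of -1.005, and the middle one of all genes 0.04. Chac1 had 0.858 and 0 CPM (from here on scaled with TMM) in IAA-treated RPB8 cells, against 39.7 and 33.2 CPM in untreated ones, and its 3 reads with IAA correspond to 1.12% left (95% counting interval 0.229 to 3.29%). Nlrp12 had 2.57 and 2.60 CPM with IAA, against 73.2 and 62.1 CPM untreated (log2 fold change -4.70, SE 0.28, edgeR adjusted p = 2.96e-19). Pou2f3, a POU-domain transcription factor, had 4.004 and 3.905 CPM with IAA, against 67.3 and 59.0 CPM untreated. For these 3 the IAA libraries lay far under both untreated ones.

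Other members rose in RPB8. Nxt1, a cofactor of mRNA export, had 145.3 and 139.6 CPM in IAA-treated RPB8 cells, against 44.9 and 49.7 CPM in untreated ones (log2 fold change 1.59, SE 0.11, edgeR adjusted p = 1.79e-16). On the same TMM scale it kept 16.2% of its untreated level in RPB2 and 12.9% in RPB6. Bag5, a cochaperone of HSP70, rose by 1.64 on the log2 scale and Ndufaf4, an assembly factor of respiratory complex I, by 1.45. Relative to mitochondrial mRNAs, a scale that put the median over all genes at -1.44 in RPB8, none of the 150 was called higher and Ndufaf4 came to -0.04, so these rises are rises in share.

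RPB5 loss lowered 90 members (60%), against 28.1% of all genes and 43.8% of the other eligible genes, and raised 25 (16.7%), against 31% and 27%. Relative to mitochondrial mRNAs 1 member was higher in RPB5, and likewise 1 in RPB1. Chac1 again fell the furthest, with 0.610 and 1.72 CPM in IAA-treated RPB5 cells, against 39.2 and 53.9 CPM in untreated ones (log2 fold change -5.32, SE 0.29, edgeR adjusted p = 2.05e-20). Olig2 had 3.26 and 3.00 CPM with IAA, against 21.2 and 24.3 CPM untreated. Spata2, an adaptor of the deubiquitinase CYLD, went the other way, at 100.3 and 92.0 CPM with IAA, against 36.4 and 43.2 CPM untreated (log2 fold change 1.27, SE 0.13, edgeR adjusted p = 2.70e-11).

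RPB1 loss, which removes the catalytic subunit itself, lowered 82 members (54.7%), against 30.5% of all genes. That share is close to the 51.7% of other eligible genes, so it is not a result about the members, and the 27 members that were higher (18%, against 35.8% of all genes) are close to the 20.2% of other eligible genes. The members that did fall included Fgf4, at 32.7 and 35.5 CPM in IAA-treated RPB1 cells, against 342.2 and 342.7 CPM in untreated ones (log2 fold change -3.33, SE 0.08, edgeR adjusted p = 6.03e-33). Dmtn, the actin-binding protein dematin, had 16.3 and 11.8 CPM with IAA, against 123.6 and 118.0 CPM untreated. Spata2 rose here as well, to 113.9 and 107.2 CPM with IAA, against 36.7 and 38.4 CPM untreated.

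Across RPB1, RPB5 and RPB8 together, 61 members were lower in all 3 (40.7%), against 16.7% of all genes and 29.1% of the other eligible genes. The other extreme held 11 members that were higher in all 3 (7.33%), against 15.4% of all genes and 12% of the other eligible genes. Among them were Riox1, Rnd3, Med4, Nrbf2, Fzd10 and Spata2. These risers came from short genes with few exons (medians of 9.31 kb and 4 exons), and the 61 that fell from longer ones (28.6 kb and 10 exons). In each of these lines singly, other eligible genes called lower were also longer than those called higher. Their medians in RPB8 were 45.2 kb and 12.25 kb. Relative to mitochondrial mRNAs no member was higher in all 3, since RPB8 had 0 higher on that scale. A further 15 members were lower in 1 of the 3 lines and higher in another.

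Gene length separated the members in RPB8 and RPB10. In RPB8 the 50 members with the longest genes (up to 363 kb) had 47 lower and 1 higher, with a median log2 fold change of -1.67. The 50 in the middle had 36 lower and 8 higher (median -1.02), and the 50 shortest (1.39 to 10.9 kb) had 19 lower and 18 higher (median 0.07). In RPB10 the longest had 27 lower and 2 higher and the shortest 9 lower and 19 higher. Spearman's correlation of gene length with the log2 fold change across the 150 genes was -0.55 in RPB8 and -0.47 in RPB10, near the -0.57 and -0.41 across the 6716 other eligible genes, so members followed the other genes here. It was -0.03 in RPB1 (-0.22 across the other eligible genes) and -0.17 in RPB5 (-0.30). Genes are not independent replicates and share the same libraries, so these correlations carry no test.

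**Figure D3:**
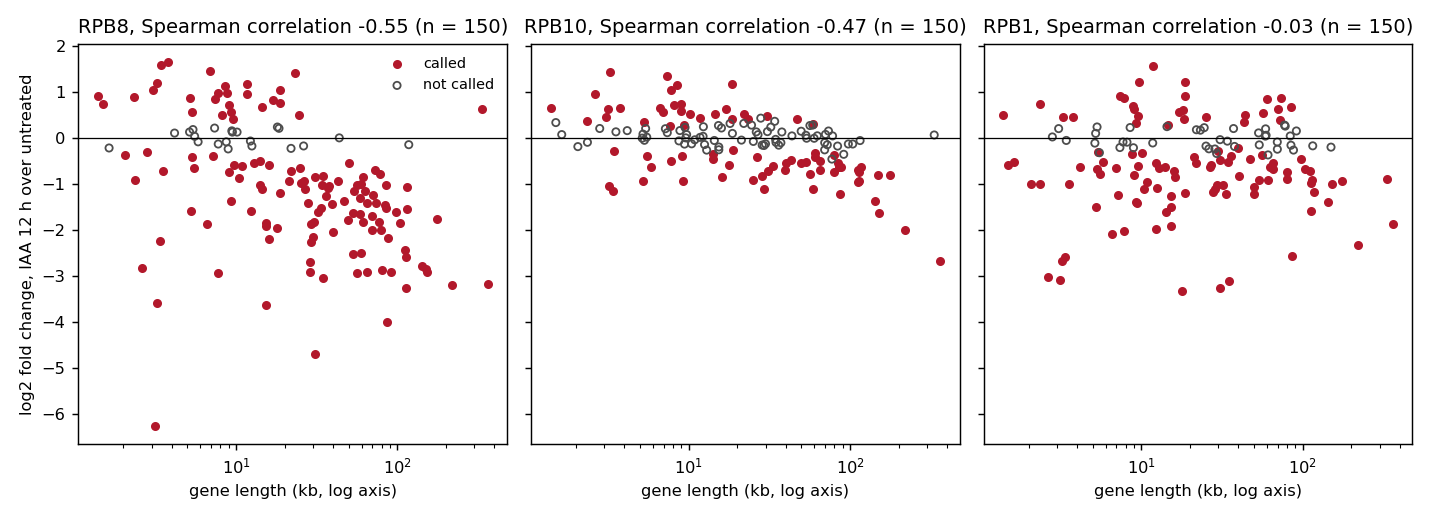
Log2 fold change (IAA over untreated, 12 h) of each member against the length of its gene in kb (log axis) in RPB8, RPB10 and RPB1, with 1 point per member. In RPB8 and RPB10 the points slope downward to the right (Spearman's correlation -0.55 and -0.47), and in RPB1 they lie level (-0.03).

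The difference between the RPB8 and the RPB1 response was itself tested for every gene. It was below 0 for 73 members (48.7%), against 20.2% of all genes and 21.9% of the other eligible genes, and above 0 for 29 (19.3%), against 20.7% and 39.3%. Members lower in RPB8 than in RPB1 had a median gene length of 56.3 kb, and those higher 8.15 kb. The other eligible genes were split alike, with medians of 55.2 kb and 13.97 kb, so the split is not particular to the members. Sin3a, the scaffold of a histone deacetylase corepressor, had 27.5 and 31.6 CPM in IAA-treated RPB8 cells, against 221.8 and 226.2 CPM in untreated ones, and 177.6 and 172.8 CPM in IAA-treated RPB1 cells, against 233.9 and 218.3 CPM in untreated ones. The RPB8 response minus the RPB1 response was -2.56 (SE 0.14, edgeR adjusted p = 5.05e-19). Tle4, a corepressor of the Groucho family whose gene spans 149.9 kb, gave -2.65 (SE 0.16, edgeR adjusted p = 3.98e-17). Fgf4 went the other way, with a difference of 1.36 (SE 0.11, edgeR adjusted p = 2.81e-13). So RPB8 loss took more of Sin3a and Tle4, and RPB1 loss more of Fgf4.

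The RPB5 response minus the RPB1 response was below 0 for 29 members (19.3%), against 10% of all genes and 9.99% of the other eligible genes, and above 0 for 13 (8.67%), against 11.9% and 24%. Herpud1, a protein of endoplasmic reticulum-associated degradation, had 21.6 and 16.7 CPM in IAA-treated RPB5 cells, against 61.2 and 54.4 CPM in untreated ones, and its log2 fold change in RPB1 was -0.21, which missed the threshold. The difference was -1.37 (SE 0.19, edgeR adjusted p = 5.89e-07). Nlrp12 fell less in RPB5 than in RPB1, with 33.8 and 36.9 CPM in IAA-treated RPB5 cells, against 68.4 and 98.4 CPM in untreated ones, and a difference of 2.02 (SE 0.27, edgeR adjusted p = 3.35e-07).

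RPB7, RPB3 and RPB9 loss lowered 66, 62 and 57 members. In RPB7 that is 44%, against 21.1% of all genes and 29.7% of the other eligible genes. In RPB9 it is 38%, against 18% and 25.9%. In RPB3 the 41.3% (23.3% of all genes) is close to the 36.9% of the other eligible genes. The count depends on the scaling: relative to mitochondrial mRNAs 10 members were lower and 68 higher in RPB3. That scale is itself uncertain in this line. Mitochondrial mRNAs made up 0.534% of counts in IAA replicate 1 and 1.72% in IAA replicate 2, against 1.27% and 1.30% in the untreated libraries. The members that rose numbered 22 in RPB7 (14.7%, against 20.2% of all genes), 26 in RPB3 (17.3%, against 24.4%) and 19 in RPB9 (12.7%, against 16.8%). Leaving out 1 library took the count of risers down to 12 in RPB7 (without IAA replicate 2, and 14 without IAA replicate 1), 17 in RPB3 (without IAA replicate 1) and 12 in RPB9 (without untreated replicate 1). Across the 150 members the responses in RPB3 and RPB9 had a Pearson correlation of 0.93 (0.82 across the other eligible genes), and those in RPB7 and RPB10 one of 0.10 (0.33), given as descriptions.

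Stress-response mRNAs were among the members that fell in these 3 lines. In RPB3, Chac1 had 1.41 and 1.62 CPM with IAA, against 54.8 and 54.5 CPM untreated (log2 fold change -5.16, SE 0.25, edgeR adjusted p = 9.70e-22). Atf4, the transcription factor at the centre of the integrated stress response, had 100.4 and 92.7 CPM in IAA-treated RPB3 cells, against 457.9 and 433.6 CPM in untreated ones, and Herpud1 9.99 and 13.4 CPM, against 57.6 and 55.7 CPM. All 9 listed stress members were lower in RPB3 and in RPB7, 8 of 9 in RPB5, RPB9 and RPB11, 7 in RPB1, 6 in RPB8, 5 in RPB12 and 0 in RPB4 and WT. Not all moved down: Sesn2 had log2 fold changes of 0.40 in RPB1 and 0.30 in RPB5. It was called lower in 4 and higher in 3 of the 10 degron lines. Of the 30 other tested genes on that list, 23 were lower in RPB3, in RPB7 and in RPB9, 17 in RPB5, 15 in RPB8 and 14 in RPB12, so the fall in these lines was not limited to members.

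RPB7 cells were high in these mRNAs before treatment. Untreated RPB7 had 130.2 and 134.7 CPM of Chac1, and the 13 untreated lines had a median of 39.1 CPM. The pseudokinase Trib3, a target of ATF4, averaged 289.5 CPM in untreated RPB7 cells, against a median of 85.2 CPM over the lines, and Cebpg 175.5 CPM, against 41.2 CPM. Of the 13 untreated lines RPB7 was the highest in Chac1, Trib3 and Cebpg. With IAA, RPB7 cells had 8.25 and 6.67 CPM of Chac1 (log2 fold change -4.16, SE 0.17, edgeR adjusted p = 1.03e-23) and 88.4 and 78.4 CPM of Trib3, against 258.8 and 320.2 CPM in untreated RPB7 cells. What part the higher starting level had in the fall was not tested.

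Of the 9 stress members 5 rose in RPB10 and 1 fell. In this line 48 members were lower (32%), against 21.2% of all genes, and 29 higher (19.3%), against 18.2%, shares close to the 30.8% and 20.5% of other eligible genes. The count of higher members depends on the processing, at 49 in a fit of RPB10 alone and 5 relative to mitochondrial mRNAs. Chac1 rose, with 34.1 and 34.3 CPM in IAA-treated RPB10 cells, against 20.6 and 23.4 CPM in untreated ones (log2 fold change 0.63, SE 0.16, edgeR adjusted p = 0.00161). Trib3 (0.65), Cebpg (0.52), Herpud1 (0.74) and Sesn2, a sensor of leucine (1.18), also rose, and Xbp1, the transcription factor of the unfolded protein response, fell (-0.93). Slc38a2 (0.24), Atf4 (-0.09) and Vegfa (-0.26) missed the threshold, and of the 30 other tested genes on the list 10 were lower and 12 higher. Untreated RPB10 cells were low in some members, with Klf2 at 81.2 and 90.3 CPM, the lowest of the 13 lines. The deepest falls in RPB10 were those of Arl15, a small GTPase, at 6.49 and 6.55 CPM with IAA, against 44.7 and 38.5 CPM untreated (log2 fold change -2.67, SE 0.21, edgeR adjusted p = 4.72e-14), and of Gli2, a transcription factor of Hedgehog signalling (-2.01).

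The promoters of 3 stress members are shown because they fell together in RPB3, RPB7 and RPB9 and rose together in RPB10, and because they hold TGATGNAA, the core of the element that ATF4 binds together with C/EBP factors. Each run is 250 bases before to 50 bases after the annotated start, 5' to 3' on the gene's strand (RefSeq, GRCm38.p6), with the motif in capitals, searched on both strands. In these 3 the match is on the opposite strand. It begins 193 bases before the start in Chac1 (chr2:119350992-119351291, plus strand) and 112 bases before it in Herpud1 (chr8:94386179-94386478, plus strand), and 14 bases after the start in Trib3 (chr2:152344011-152344310, minus strand). Of the 119 members with a RefSeq promoter, 4 held the motif (3.36%), against 2.47% of other eligible genes and 4.51% of all genes with a promoter, so members as a group did not hold it more often than all genes. The remaining match was in Btbd3, a BTB-domain protein. Cebpg and Sesn2, which also rose in RPB10, are not among these 4, either for lack of a match or of a RefSeq promoter. Whether the motif goes with the changes was not tested.
Chac1 promoter: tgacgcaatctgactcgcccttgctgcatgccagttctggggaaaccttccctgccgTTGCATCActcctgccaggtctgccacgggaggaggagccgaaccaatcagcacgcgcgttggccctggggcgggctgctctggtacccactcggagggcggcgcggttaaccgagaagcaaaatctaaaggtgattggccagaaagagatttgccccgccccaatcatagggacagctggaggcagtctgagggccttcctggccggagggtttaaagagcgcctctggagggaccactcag
Herpud1 promoter: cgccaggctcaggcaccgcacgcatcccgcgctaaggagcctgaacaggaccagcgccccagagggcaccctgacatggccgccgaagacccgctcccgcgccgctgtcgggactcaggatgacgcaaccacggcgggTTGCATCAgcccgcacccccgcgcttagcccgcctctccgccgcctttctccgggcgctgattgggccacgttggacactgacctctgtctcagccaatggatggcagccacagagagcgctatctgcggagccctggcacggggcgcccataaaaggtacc
Trib3 promoter: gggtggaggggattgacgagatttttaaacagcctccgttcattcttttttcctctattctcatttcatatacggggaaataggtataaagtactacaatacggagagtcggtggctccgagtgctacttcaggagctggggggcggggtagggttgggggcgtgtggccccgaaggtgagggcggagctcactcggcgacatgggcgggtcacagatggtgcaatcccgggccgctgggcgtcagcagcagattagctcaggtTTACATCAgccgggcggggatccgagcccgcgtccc

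RPB11 loss moved fewer members, 33 lower (22%, against 13.1% of all genes and 19.6% of other eligible genes) and 18 higher (12%, against 10.6% and 13.8%). Both shares are close to those of other eligible genes, so they are not a result about the members. The count of higher members moved when 1 library was left out. Chac1 had 11.3 and 12.4 CPM with IAA, against 32.5 and 45.7 CPM untreated. Klf4, a pluripotency factor of the same family as Klf2, rose to 371.4 and 375.8 CPM in IAA-treated RPB11 cells, against 179.4 and 236.0 CPM in untreated ones (log2 fold change 0.84, SE 0.11, edgeR adjusted p = 1.09e-07). That is opposite to its fall in RPB5, where it had 124.3 and 121.1 CPM with IAA, against 229.8 and 309.0 CPM untreated.

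**Figure D4:**
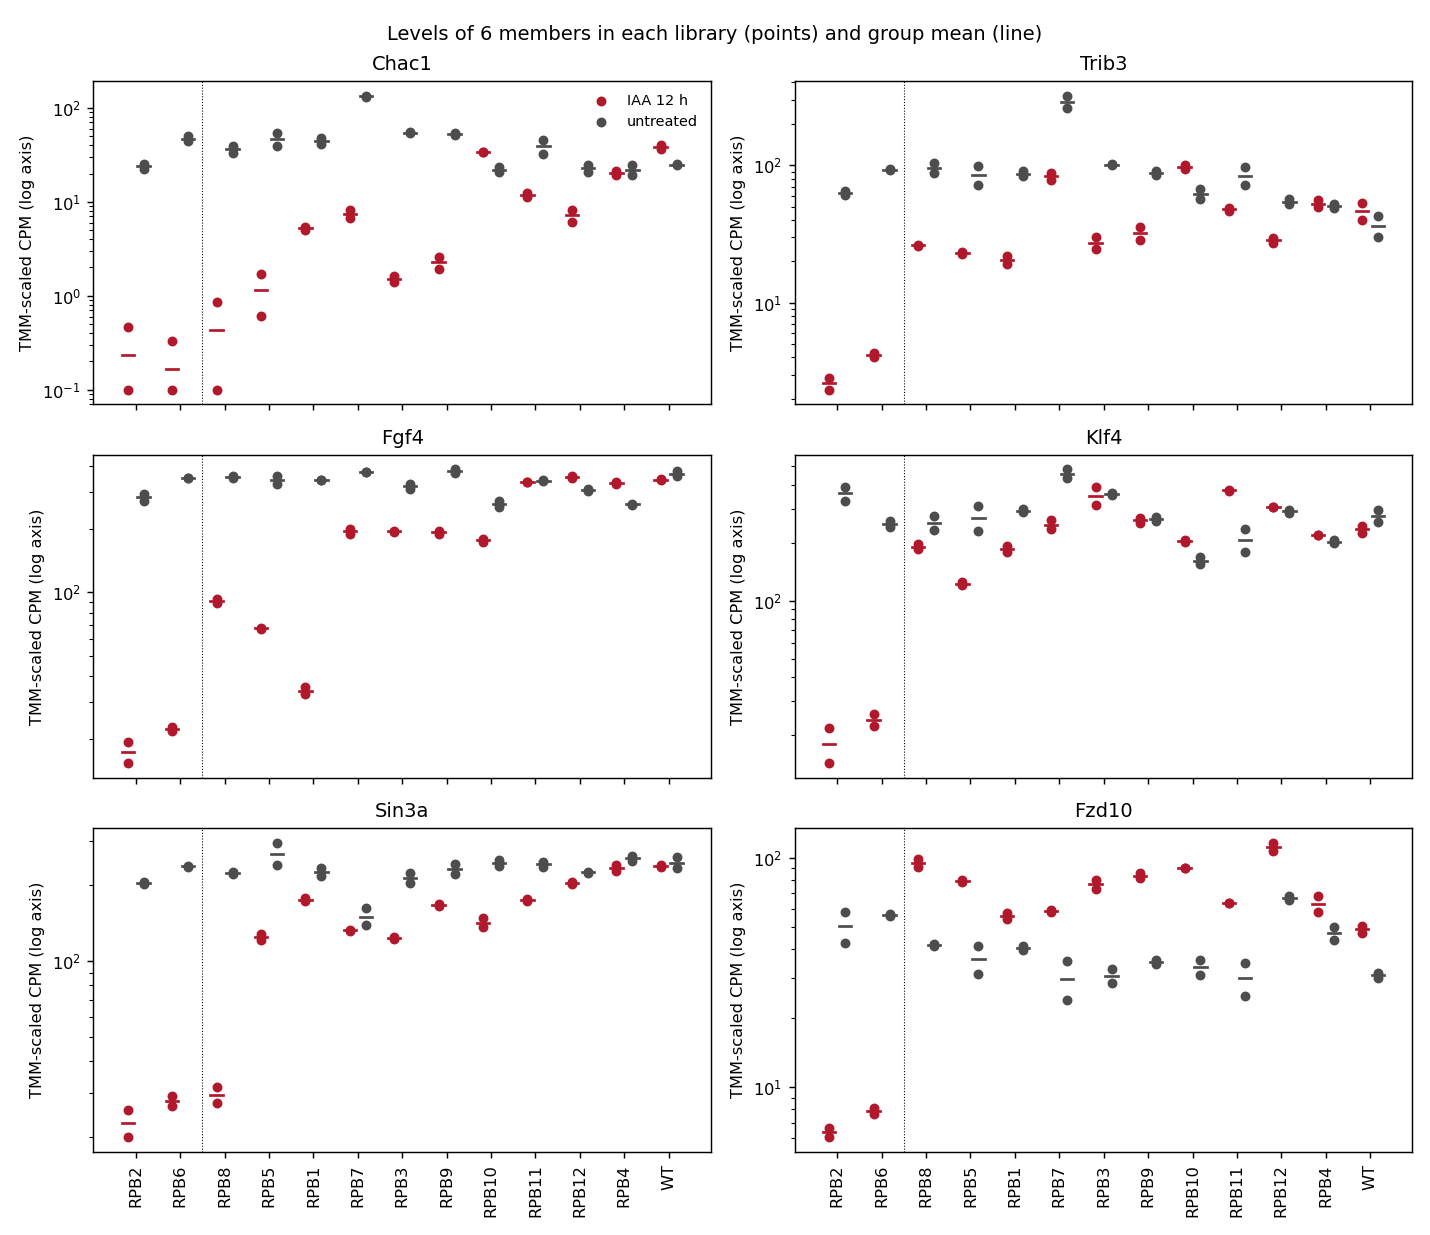
Level in CPM scaled with TMM (log axis) of Chac1, Trib3, Fgf4, Klf4, Sin3a and Fzd10 in each IAA and each untreated library of the 13 lines, with 1 point per library and libraries at 0 drawn at 0.1 CPM. Chac1 is at or under 1.72 CPM in the IAA libraries of RPB2, RPB3, RPB5, RPB6 and RPB8, while in RPB10 its IAA points stand above the untreated ones.

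The pluripotency members did not move as a block. Of the 5, 4 were lower in each of RPB8, RPB5, RPB1 and RPB7, 2 in RPB3 and RPB9, 1 in RPB10 and 0 in RPB11, RPB12 and RPB4, while 3 were higher in RPB10 and in RPB11. Klf2 had 45.5 and 40.4 CPM in IAA-treated RPB1 cells, against 358.4 and 339.8 CPM in untreated ones, and 160.1 and 171.4 CPM in IAA-treated RPB10 cells, against 81.2 and 90.3 CPM in untreated ones. The responses of the lines lay on opposite sides of the untreated level. Nodal, a ligand of the TGF-beta family, had 97.9 and 96.4 CPM in IAA-treated RPB10 cells, against 38.2 and 38.2 CPM in untreated ones (log2 fold change 1.35, SE 0.12, edgeR adjusted p = 2.57e-12). Among untreated cells, RPB10 had the lowest means of all lines in Klf2, Klf4 and Nodal. These were 85.8, 161.1 and 38.2 CPM, against medians over the lines of 333.4, 269.4 and 46.3 CPM. What part the lower starting level had in the rises in RPB10 was not tested. Sox2 was lower in RPB1, at 192.4 and 218.1 CPM with IAA, against 414.9 and 406.7 CPM untreated (log2 fold change -1.001, SE 0.12, edgeR adjusted p = 4.49e-10). Of the 27 other tested genes of the pluripotency network, 23 were lower in RPB8, 22 in RPB5 and in RPB7, 21 in RPB1 and 15 in RPB10.

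Cell division genes among the members were lower in varying number over the lines. The list of cell cycle regulators held 8 members, with 1 of them (Cdc42ep4) by its name pattern alone. All 8 were lower in RPB8, 7 in RPB5, 5 in RPB1, RPB9 and RPB10, 4 in RPB7, 3 in RPB3 and 0 in WT. Of the 240 other tested genes on the list, 105 were lower and 58 higher in RPB8, 108 and 63 in RPB1, and 57 and 50 in RPB10. Plk1, a kinase of mitotic entry and spindle assembly, had 82.1 and 93.0 CPM in IAA-treated RPB1 cells, against 195.8 and 182.6 CPM in untreated ones (log2 fold change -1.11, SE 0.09, edgeR adjusted p = 3.87e-14). Kif14, a kinesin of cell division, had 11.7 and 9.11 CPM in IAA-treated RPB8 cells, against 73.9 and 84.3 CPM in untreated ones (log2 fold change -2.91, SE 0.17, edgeR adjusted p = 2.97e-19). Spred1, Sgk1 and Trib3, the members on the FGF-ERK and immediate-early list, were all lower in RPB1 and RPB5. Of the 50 other tested genes on it, 7 were lower in each of these lines and 36 and 33 higher. Only 19 of the 53 tested genes on this list were eligible, so most of the others could not have been members. The 3 were also selected for deep falls, so these counts do not compare like with like.

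Fzd10, a Wnt receptor, was the member that rose in the most lines. In RPB10 it had 89.9 and 90.3 CPM with IAA, against 30.8 and 35.7 CPM untreated (log2 fold change 1.43, SE 0.13, edgeR adjusted p = 2.57e-12), and in RPB3 80.1 and 73.1 CPM, against 28.4 and 32.9 CPM. It was higher in 9 of the 10 degron lines, with RPB4 at 0.43 and not called. WT cells had 50.3 and 47.2 CPM with IAA, against 29.9 and 31.4 CPM untreated (log2 fold change 0.67, SE 0.14, edgeR adjusted p = 0.00565), a call that was lost without IAA replicate 1, untreated replicate 1 or untreated replicate 2. On the same TMM scale it kept 12.8% of the untreated level in RPB2 and 14% in RPB6, the lines that chose it.

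RPB12, RPB4 and WT cells changed little. In RPB12, 11 members were lower (7.33%), against 2.65% of all genes and 3.75% of other eligible genes, and 4 higher (2.67%), against 2.14%. In WT, 1 was lower (0.667%), against 0.842% of all genes, and 5 higher (3.33%), against 0.803%. In RPB4, 2 were lower (1.33%), against 0.948% of all genes, and 6 higher (4%), against 1.13%. These small counts moved when 1 library was left out, to between 2 and 4 higher in RPB12 (2 without untreated replicate 1), between 1 and 3 higher in RPB4 and between 1 and 2 higher in WT.

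Of the 11 members lower in RPB12, 5 were stress members. Chac1 had 8.18 and 6.17 CPM in IAA-treated RPB12 cells, against 20.7 and 24.8 CPM in untreated ones (log2 fold change -1.67, SE 0.21, edgeR adjusted p = 1.97e-07), and Vegfa, the endothelial growth factor, had 6.44 and 4.23 CPM, against 12.4 and 13.5 CPM. Trib3 fell by 0.93, Herpud1 by 0.87 and Sesn2 by 0.76 on the log2 scale. WT cells moved the other way in 2 of the 9, with Chac1 at 36.3 and 39.98 CPM with IAA, against 25.1 and 24.7 CPM untreated (log2 fold change 0.61, SE 0.16, edgeR adjusted p = 0.0343), a call lost on leaving out any 1 of the 4 libraries, and with Slc38a2, an amino acid transporter, at 299.6 and 304.0 CPM, against 196.3 and 210.8 CPM. The RPB12 response minus the WT response was below 0 for 6 members (4%), against 0.335% of all genes and 0.521% of other eligible genes, and above 0 for 0, against 0.195% (9 at an unadjusted p under 0.05 in edgeR, and DESeq2 called 6 members in either direction). The 6 were Chac1 (-2.28, SE 0.27, edgeR adjusted p = 2.93e-07), Herpud1, Trib3, Vegfa, Slc38a2 and Sesn2, and 3 of them were called without RPB12 untreated replicate 2. All 6 belong to the stress list that was put together after the values were seen.

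In RPB4, Cdc42ep4, an effector of the GTPase CDC42, had 23.2 and 26.0 CPM with IAA, against 44.8 and 41.2 CPM untreated (log2 fold change -0.80, SE 0.14, edgeR adjusted p = 0.000138). Tfap2c, an AP-2 transcription factor, had 75.5 and 75.2 CPM, against 47.4 and 40.8 CPM (0.78), but it also rose in RPB12 (0.54) and in WT, where it had 63.8 and 62.7 CPM with IAA, against 43.2 and 51.7 CPM untreated (0.42). The RPB4 response minus the WT response was below 0 for 0 members, against 0.112% of all genes, and above 0 for 1 (0.667%), against 0.173%. That was Fgf4, with a difference of 0.44 (SE 0.10, edgeR adjusted p = 0.0193) that was lost when any 1 of 7 of the 8 libraries was left out. Without adjustment edgeR had 8 members below 0 and 12 above 0 at p under 0.05, and DESeq2 called 1 member in either direction.

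After 1 h of IAA many members were lower in RPB1. There 65 members were lower than at 0 h (43.3%), against 13.9% of all 15658 genes tested and 16.6% of other eligible genes, and 4 were higher (2.67%), against 11% and 16.9%. The log2 fold change of 124 of the 150 was below 0, with a median of -0.24. Nlrp12 had 2.40 and 3.61 CPM after 1 h, against 11.3 and 10.5 CPM at 0 h (log2 fold change -1.87, SE 0.23, edgeR adjusted p = 2.42e-05). Trmt10c, a mitochondrial tRNA methyltransferase subunit, had 25.2 and 28.5 CPM, against 56.7 and 50.2 CPM, and Fgf4 178.1 and 170.6 CPM, against 316.0 and 305.3 CPM. In these 3 both levels after 1 h were below both at 0 h, and the falls of Trmt10c and Fgf4 were -0.997 (SE 0.10) and -0.83 (SE 0.07) on the log2 scale. The count of lower members was 36 without 1 h replicate 2 and 33 relative to mitochondrial mRNAs.

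Falls in RPB1 at 1 h and at 12 h did not involve the same members throughout. These times come from separate sets of libraries, each with its own fit, and the library type at 1 h is not stated. They are therefore not a single time course. Of the 65 lower at 1 h, 39 were lower at 12 h as well (60%) and 9 were higher (13.8%), and among other eligible genes lower at 1 h the shares were 60.7% and 14.2%. Read from 12 h, 39 of the 82 members lower in that set were lower in the 1 h set (47.6%), against 19.5% of the other eligible genes. Plk1 had 198.7 and 196.9 CPM after 1 h, against 148.7 and 162.7 CPM at 0 h, a rise of 0.35 (SE 0.08, edgeR adjusted p = 0.00666) that was lost without 0 h replicate 1, and it fell at 12 h. Bahcc1, Nsrp1 and Klf4 were the other members higher at 1 h. Trmt10c, lower at 1 h, was lower at 12 h in 0 of the 10 lines.

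RPB3 and RPB6 moved less in the same hour. In RPB3, 6 members were lower (4%), against 0.351% of all genes and 0.254% of other eligible genes, and 0 higher, against 0.00639%. In RPB6, 5 were lower (3.33%), against 0.6% of all genes and 0.597% of other eligible genes, and 0 higher, against 0.939%. Among the counts of 0, edgeR gave 1 member higher in RPB3 and 8 in RPB6 at an unadjusted p under 0.05, and DESeq2 called 0 in both. Leaving out 1 library gave 1 to 13 lower members in RPB3 (2 without 0 h replicate 1, 1 without 0 h replicate 2, 13 without 1 h replicate 1) and 0 to 8 in RPB6 (0 without 0 h replicate 1 or 1 h replicate 1, 1 without 0 h replicate 2, 8 without 1 h replicate 2), and relative to mitochondrial mRNAs the count was 0 in both. Nlrp12 was the single member lower in all 3 lines, with 3.34 and 3.75 CPM in RPB3 cells after 1 h, against 8.01 and 7.71 CPM at 0 h, and 7.29 and 7.70 CPM in RPB6 cells, against 18.1 and 13.5 CPM. Neither pair of groups overlapped.

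The other members lower in RPB3 after 1 h were Olig2, Fgf4, Fzd10 and the kinases Sgk1 and Pim3. Fgf4 had 222.0 and 217.2 CPM after 1 h, against 355.5 and 331.4 CPM at 0 h (log2 fold change -0.65, SE 0.07, edgeR adjusted p = 4.62e-05). Fzd10 had 29.5 and 34.3 CPM, against 47.5 and 46.9 CPM (-0.56), so it was lower at 1 h in RPB3 and higher at 12 h, in libraries of separate sets. In RPB6 the others were Npat, a coactivator of histone genes, Kif20b, a kinesin, Adnp2 and S1pr2, a receptor of sphingosine phosphate. Npat had 67.7 and 81.9 CPM after 1 h, against 99.1 and 104.5 CPM at 0 h (log2 fold change -0.45, SE 0.10, edgeR adjusted p = 0.036).

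**Figure D5:**
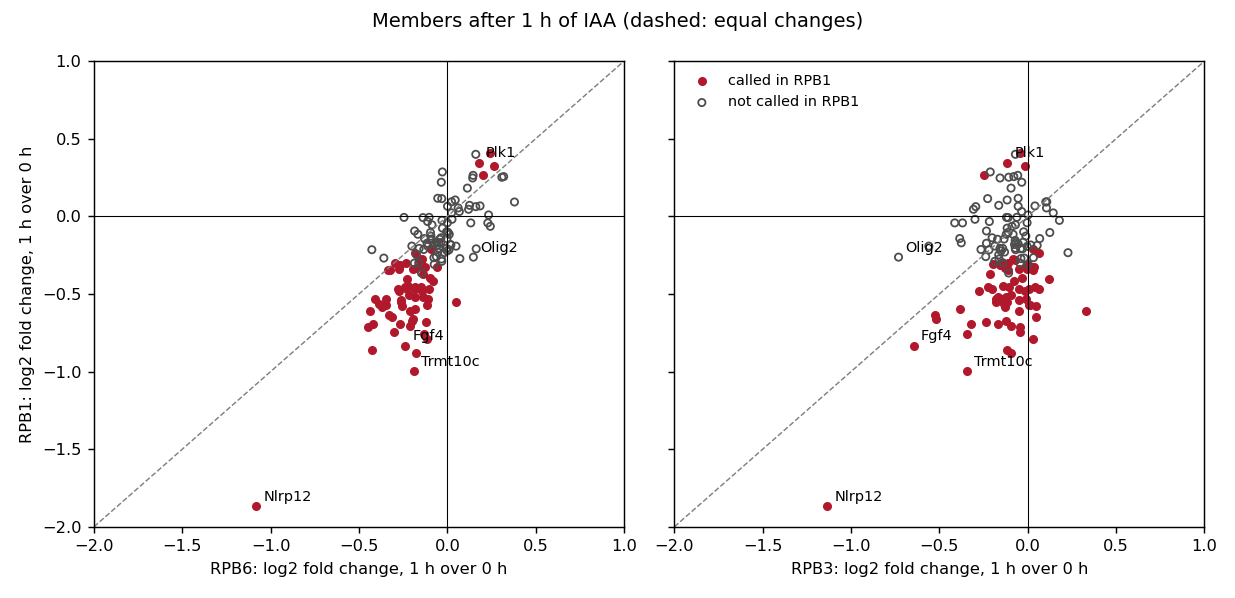
Log2 fold change after 1 h (over 0 h) of each member in RPB1 (vertical axis) against RPB6 and against RPB3 (horizontal axes), with 1 point per member. The dashed line marks equal changes. Values in RPB6 follow those in RPB1 (Pearson's r 0.78, and 0.82 across the other eligible genes) with a smaller median fall. Those in RPB3 scatter (0.30, and 0.25 across the other eligible genes), and Nlrp12 is low in all 3.

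The RPB6 response minus the RPB1 response at 1 h was above 0 for 3 members (2%), against 0.505% of all genes and 0.224% of other eligible genes, and below 0 for 0, against 0.0639% (1 at an unadjusted p under 0.05 in edgeR, and DESeq2 called 3 in either direction). The 3 were Fgf4 (0.59, SE 0.10, edgeR adjusted p = 0.00645), Trmt10c (0.81, SE 0.14, edgeR adjusted p = 0.00779) and 2610021A01Rik (0.70, SE 0.15, edgeR adjusted p = 0.0334). Fgf4 had 161.3 and 168.2 CPM in RPB6 cells after 1 h, against 185.8 and 203.3 CPM at 0 h, a difference that missed the threshold (edgeR adjusted p = 0.0962), so its clear fall at 1 h was seen in RPB1 and RPB3. The count of 3 was 0 without RPB1 0 h replicate 1 or 1 h replicate 1, and 1 without RPB1 1 h replicate 2, RPB6 0 h replicate 1 or RPB6 1 h replicate 2. The RPB6 response minus the RPB3 response was above 0 for 1 member (0.667%), against 0.198% of all genes, and below 0 for 0, against 0.00639% (12 at an unadjusted p under 0.05 in edgeR, and DESeq2 called 1 in either direction). That was Sox2, at 446.3 and 429.4 CPM in RPB6 cells after 1 h, against 380.6 and 366.6 CPM at 0 h, and 211.3 and 250.4 CPM in RPB3 cells after 1 h, against 297.0 and 300.2 CPM at 0 h. Neither of the 2 changes in Sox2 was called by itself, and leaving out 1 library gave 0 to 10 members for this difference.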

How the data were processed

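The authors deposited 1 table of raw read counts per gene for 64 libraries in 32 groups of 2. Per the submitters' processing notes, the tools were featureCounts, STAR, Bowtie2, cutadapt 1.18, DESeq2, deepTools and SAMtools and the builds mm10 and dm6, with no role or order, and the sources used here state neither strand setting nor annotation release. The 12 h libraries were poly(A) selected per the labels' protocols, and for the 1 h set no library type is stated. A further 4 columns match no sample label and were not used. Doxycycline is 2 µg/ml in the labels and 1 µg/ml in the series text, and the 10% Drosophila spike-in was not analysed here, so values are relative.

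Members were taken on CPM of all counts, as the rule requires, and the members and gene lists were chosen with earlier results of these data known. The stress list was put together after values were seen. Members named follow a written rule: the lowest ratios, ranks at the edge of the list, the 3 to 5 lowest and highest called per comparison, the 3 smallest adjusted p-values per difference, and up to 4 per list. Genes set beside these, such as Atf4, Klf2 in RPB10 and Plk1 at 12 h, were chosen after their values were seen. Symbols and coordinates are from GENCODE M21 (mm10), with promoters from RefSeq.

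edgeR 4.0.16 (R 4.3.3) quasi-likelihood F-tests (filterByExpr, TMM scaling, Benjamini-Hochberg adjustment, threshold 0.05) were fitted to all 52 libraries of the 12 h set (17928 genes, 26 residual degrees of freedom) and apart to the 12 libraries at 0 h and 1 h (15658 genes, 6 degrees of freedom). The fit was tested on simulated data, in which 200 genes of at least 20 CPM were changed and all others held equal between the 2 groups. For RPB1 at 12 h (16893 genes) 100% of changes of 2-fold and of 4-fold were recovered with 2.91% false calls. For RPB6 at 1 h (15431 genes) 100% of both were recovered with 6.98% false calls. In the real RPB1 data at 12 h 30.5% of genes were called lower and 35.8% higher. The simulated rates do not cover changes that wide or genes of lower level. Alternatives were RLE factors, total counts, mitochondrial mRNAs as the scale, no filter, DESeq2 1.42.0, a fit of only the lines compared, a replicate block and other member rules. Each library was also left out (56 fits), except those of RPB2 and RPB6 at 12 h. The block and leave-one-out fits took their dispersion from the trend of the full fit, unlike the main fit. Python 3.11.15 with pandas 2.3.3, numpy 2.4.6, scipy 1.17.1 and matplotlib 3.10.9 served for the rest.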

Additional observations from a re-analysis of the deposited data

Results flagged for a closer look

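The results below are differences between the responses of 2 lines under the same contrast, each tested by an interaction term in edgeR and given as log2 values of the first line's response minus the second's. They are the members with the smallest adjusted p in each difference. At 12 h RPB8 minus RPB1 gave -2.56 for Sin3a, -2.65 for Tle4 and 1.36 for Fgf4. RPB5 minus RPB1 gave 0.98 for Fgf4, 2.02 for Nlrp12 and -1.37 for Herpud1. RPB12 minus WT gave -2.28 for Chac1, -1.24 for Herpud1 and -1.29 for Trib3, and RPB4 minus WT gave 0.44 for Fgf4. At 1 h RPB6 minus RPB1 gave 0.59 for Fgf4, 0.81 for Trmt10c and 0.70 for 2610021A01Rik, and RPB6 minus RPB3 gave 0.60 for Sox2. The 12 h differences from RPB1 share the RPB1 libraries, those from WT share the WT libraries, and the 1 h differences share the RPB6 libraries, so their values are not independent.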

How the results depend on the processing

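All 34 counts of members called stayed within 1.5 times with RLE factors, with DESeq2 and with members from TMM-scaled ratios. Other settings moved some of them, and the cause was not tested. Relative to mitochondrial mRNAs, members higher numbered 0 in RPB8, 1 in RPB5, 1 in RPB1, 0 in RPB7, 68 in RPB3, 1 in RPB9, 5 in RPB10, 2 in RPB11 and 0 in RPB12, RPB4, WT and RPB1 at 1 h. Members lower on that scale numbered 10 in RPB3, 26 in RPB9, 4 in RPB11, 1 in RPB12, 0 in RPB4 and WT, 33 in RPB1 at 1 h and 0 in RPB3 and RPB6 at 1 h. Differences called on that scale numbered 2 for RPB5 minus RPB1, 1 for RPB12 minus WT, and 0 for RPB4 minus WT, RPB6 minus RPB1 and RPB6 minus RPB3. Ndufaf4 in RPB8 came to -0.04, the single reversed value. The RPB3 counts on that scale at 12 h are uncertain, since mitochondrial mRNAs made up 0.534% of counts in IAA replicate 1 and 1.72% in IAA replicate 2.

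In a fit of only the lines compared, members higher were 6 in RPB7, 30 in RPB9, 49 in RPB10, 14 in RPB12, 11 in WT and 9 in RPB1 at 1 h. Members lower were 23 in RPB12, 5 in WT, 1 in RPB3 at 1 h and 9 in RPB6 at 1 h, and differences 15 for RPB12 minus WT, 3 for RPB4 minus WT and 0 for RPB6 minus RPB3. With a minimum of 50 CPM, which keeps 62 of the members, higher were 16 in RPB5, 15 in RPB1, 17 in RPB3, 2 in RPB12, 3 in RPB4, 2 in WT and 1 in RPB6 at 1 h, lower 7 in RPB12 and 3 in WT, and RPB12 minus WT 3. With total counts, RPB3 had 41 lower, RPB9 29 higher, RPB1 at 1 h 2 higher and RPB6 minus RPB3 0. With no filter, WT had 3 higher, RPB3 at 1 h 12 lower, RPB6 at 1 h 19 lower and RPB6 minus RPB3 7. With Zfp symbols kept, RPB6 minus RPB1 had 7. The median larger ratio was 7.56%, and 12.0% with TMM-scaled CPM and 2.98% relative to mitochondrial mRNAs.

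The deviations of same-numbered libraries correlated between -0.391 (RPB7 at 12 h) and 0.235 (RPB3 at 1 h). The sign varied between lines, so the replicate numbers do not give a common pairing. Whether libraries were paired within a line is not settled by these values. With the replicate block, WT had 3 higher, RPB1 at 1 h 7 higher, RPB3 at 1 h 10 lower, RPB6 at 1 h 16 lower, RPB4 minus WT 0 and RPB6 minus RPB3 5. A crossed block in 5 lines, chosen after seeing the data, left 10 of 10 counts within 1.5 times.

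Leaving out 1 library gave 12 to 18 members higher in RPB7, 17 to 22 in RPB3, 12 to 15 in RPB9, 11 to 16 in RPB11, 2 to 4 in RPB12, 1 to 3 in RPB4, 1 to 2 in WT and 0 to 3 in RPB1 at 1 h. Members lower ranged over 1 to 2 in RPB4, 0 to 1 in WT, 36 to 50 in RPB1 at 1 h, 1 to 13 in RPB3 at 1 h and 0 to 8 in RPB6 at 1 h. Differences ranged over 3 to 6 for RPB12 minus WT, 0 to 1 for RPB4 minus WT, 0 to 3 for RPB6 minus RPB1 and 0 to 10 for RPB6 minus RPB3. With 2 libraries a group, the lone library left is assumed to vary like the other groups. These fits also took their dispersion from the trend of the full fit, so a moved count cannot be put down to the library left out alone. Counts in RPB4, WT and the RPB3 and RPB6 libraries at 1 h are thus the least certain.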
